A study of Mus musculus with 8 samples.

Results

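The outer mitochondrial membrane carries the entry gate for proteins made in the cytosol, the TOM complex (translocase of the outer membrane), and a sorting and assembly machinery, SAM, that folds barrel-shaped proteins into the membrane. The 10 genes described here were taken by name from a table of 14012 genes: Tomm5, Tomm7, Tomm20, Tomm22, Tomm34, Tomm40, Tomm40l, Samm50, Mtx1 and Mtx2. All 10 had counts in every library. RNA came from the quadriceps femoris (QF), a thigh muscle, of 4 mice labelled knockout (Grpel1skm-/-) and 4 labelled control (Grpel1 flox/flox), with 1 library per mouse.

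Both groups carry the floxed Grpel1 gene. In the knockouts a Cre recombinase made under the human skeletal muscle α-actin promoter (HSA-Cre-ERT2) and switched on by tamoxifen deletes it in muscle fibres, so other cells of the muscle keep the gene. Injections were begun at an age of 5 weeks and given on 5 days. The age of the mice when these muscles were taken, and whether the control mice of these libraries were given tamoxifen, are not given in the sources used here. The labels name no treatment. For its body weight curves the study describes several kinds of controls. They were floxed mice with Cre that got no tamoxifen, floxed mice without Cre that got it, and wild type mice with Cre that got it. Whether the floxed control mice of these libraries carried Cre is not given either. Any effect of tamoxifen or Cre on the values therefore cannot be told apart from that of the deletion.

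TOMM40 is a barrel that forms the pore of TOM, and TOMM40L is its paralog. TOMM22 and TOMM20 are receptors that catch precursors with a targeting sequence, and the small subunits TOMM5 and TOMM7 help to build and hold the complex. TOMM34 is a cytosolic co-chaperone that binds HSP70 and HSP90. SAMM50 is the barrel of SAM, and the metaxins MTX1 and MTX2 are its partners on the cytosolic side. Precursors that pass TOM on their way to the matrix are pulled in by a motor built on mtHSP70, whose nucleotide exchange factor is GRPEL1.

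The libraries held 16017565 to 20361144 counts on the genes of the table. Grpel1 itself was at 68.4 ± 3.04 CPM in the controls and 65.3 ± 6.11 CPM in the libraries labelled knockout (SD, n = 4 each), where CPM is the count scaled by TMM to a common library size. The count of the whole gene did not part the groups, so it is no check of the labels, from which each direction below is taken. Summed over 6 markers of muscle fibres (among them Acta1, Ckm and Ttn), control libraries held 190100 to 250131 CPM, and libraries labelled knockout 57265 to 78801 CPM, with 6 of 6 markers lower. In the same libraries 4 of 6 fibroblast markers and 4 of 5 endothelial markers were lower, and 3 of 4 satellite cell markers were higher. Sums over all markers of a type are given with the controls first. Fibroblast markers were at 1369 to 1899 against 559 to 818 CPM, and endothelial markers at 243 to 360 against 175 to 196 CPM. Satellite cell markers were at 31.6 to 34.8 against 44.8 to 64.3 CPM. Summed adipocyte, macrophage, Schwann and erythroid markers overlapped between the groups, at 248 to 1459 against 685 to 2481 CPM, 53.7 to 133 against 115 to 204 CPM, 31.8 to 104 against 48.9 to 80.7 CPM and 41.1 to 102 against 8.61 to 96.7 CPM, with 1 macrophage marker past the threshold. Markers were counted as higher or lower at an adjusted p under 0.01 by edgeR, as described below. Over all genes 23.6% passed it higher and 21.1% lower. No marker was at 0 in any library. The part of these cells in the values below was not tested, and in a whole muscle fewer cells of a type and less RNA per cell cannot be told apart.

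The 10 genes did not move in one direction. Tomm20, Tomm22, Tomm34, Tomm40 and Mtx2 were higher in the libraries labelled knockout, Tomm40l was lower, and Tomm5, Tomm7, Samm50 and Mtx1 did not pass the threshold, an adjusted p under 0.01 (quasi-likelihood test of edgeR, Benjamini-Hochberg over all 14012 genes). The 5 of 10 higher stand beside 23.6% of all genes called higher, and the 1 of 10 lower beside 21.1% called lower. The median log2 fold change of the 10 genes was 0.30, that of all genes 0.065. Under library totals alone, which leave out the TMM factors (0.75 to 0.84 for controls, 1.19 to 1.33 for libraries labelled knockout), the median of all genes was 0.73 and 9 of the 10 genes were called higher and 0 lower. Measured from the median of all genes, the 10 changes were nearly the same under both scalings, for example 0.49 and 0.50 for Tomm20 and -0.95 and -0.96 for Tomm40l. A change of scaling shifts all genes by about the same amount, so this was fixed beforehand and is no check of the calls.

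**Figure D1:**
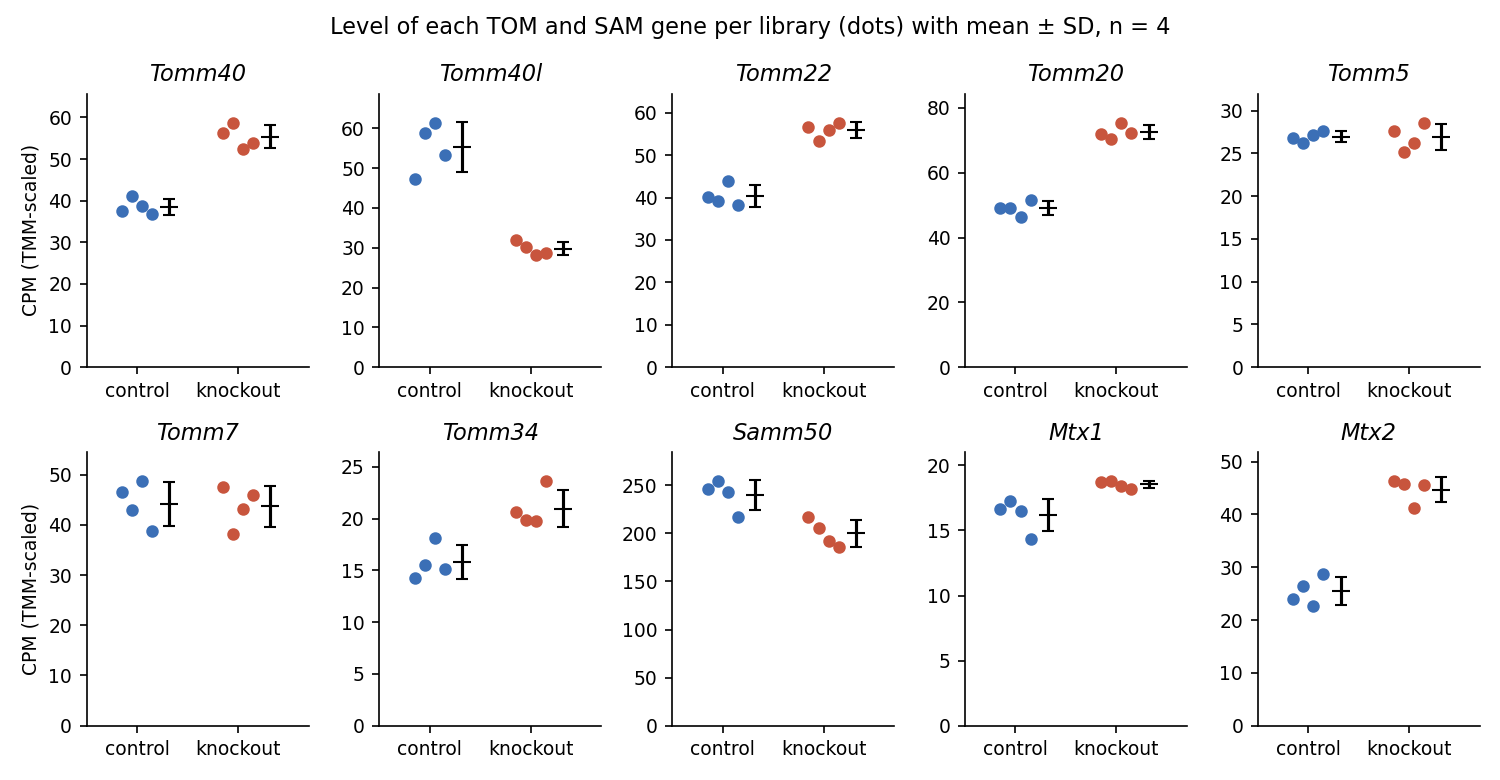
Level of each gene in CPM (TMM-scaled counts, axis from 0) in the 4 control libraries (blue) and the 4 libraries labelled knockout (red), replicates 1 to 4 from left to right, with the mean ± SD in black. Tomm40, Tomm22, Tomm20, Tomm34 and Mtx2 lie higher and Tomm40l lower in all libraries labelled knockout, while Tomm5 and Tomm7 overlap. Mtx1 also lies higher and Samm50 lower without overlap, though neither passed the threshold. The share of all genes whose groups part in this way is not given here. On library totals alone Tomm5, Tomm7 and Samm50 turn to positive changes.

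The starts of these genes were looked at because 5 of them moved the same way. RefSeq gave promoter windows (250 bases before to 50 after the start, GRCm38.p6) for 8 of the 10 genes, in 9 windows since Tomm34 has 2; Tomm7 and Tomm40l had no entry. The 60 bases before the start site are shown, 5′ to 3′ on the strand of the gene. Capitals mark the letters CCGGAAG, a strict form of the ETS-family motif, on either strand, and looser forms are not marked. The first 3 genes rose and hold this form there.
Tomm22, chr15:79670808-79670867, plus strand: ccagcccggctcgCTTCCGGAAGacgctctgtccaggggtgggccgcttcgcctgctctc
Mtx2, chr2:74825752-74825811, plus strand: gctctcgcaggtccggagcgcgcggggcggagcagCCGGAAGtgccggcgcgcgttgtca
Tomm34, chr2:164071170-164071229, minus strand: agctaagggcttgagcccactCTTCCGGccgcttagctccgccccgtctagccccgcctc
Mtx1 also holds it and did not pass the threshold.
Mtx1, chr3:89213908-89213967, minus strand: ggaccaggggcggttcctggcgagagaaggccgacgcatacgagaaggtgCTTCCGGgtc
Tomm20 and Tomm40 rose without it, and Tomm5 and Samm50 lack it too, though Tomm5 holds the shorter letters GGAAG in the stretch below.
Tomm20, chr8:126945922-126945981, minus strand: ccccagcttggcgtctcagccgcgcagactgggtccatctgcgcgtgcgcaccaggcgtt
Tomm40, chr7:19715430-19715489, minus strand: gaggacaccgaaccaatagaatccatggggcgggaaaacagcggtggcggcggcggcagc
Tomm5, chr4:45108114-45108173, minus strand: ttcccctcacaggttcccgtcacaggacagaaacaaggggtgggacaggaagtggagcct
Samm50, chr15:84192180-84192239, plus strand: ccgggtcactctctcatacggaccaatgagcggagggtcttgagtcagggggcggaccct

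In the whole windows CCGGAAG was found in 5 of the 9 windows (4 of 8 genes), against 8.86% of all 32851 windows of this length in the RefSeq table. That share is over windows of any GC content, and the stretches shown above were 58 to 76% GC. Whether these genes differ from other windows of like GC content was not tested. The 2 windows of Tomm34 overlap, so the same match (from -39 in one and -106 in the other) counts in both. In Tomm22 a pair of matches on opposite strands overlaps at positions -47 to -38 from the start. The GC box GGGCGG was in 8 of 9 windows (7 of 8 genes, 35.7% of all windows), CCAAT in 2 (37.4%, in Tomm40 and Samm50) and the YY1 letters AAGATGGC in 1 (2.75%, in Mtx1). The NRF1 letters GCATGCGC (2.71% of all windows), the CRE TGACGTCA (1.79%), the C/EBP-ATF letters TGATGCAA (0.895%) and the ERR letters AAGGTCA (4.72%) were in none of the 9. Both strands were searched, no matches of different motifs overlapped, and a match describes letters only. Only these exact letters were searched. Other forms of the motifs were not, so a missing match does not mean that a site for the factor is missing.

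The pore genes moved in opposite directions. Tomm40 (chr7:19701313-19715429, minus strand, GRCm38) was at 37.4, 41.2, 38.6 and 36.7 CPM in control replicates 1 to 4 and at 56.3, 58.7, 52.4 and 53.9 CPM in knockout replicates 1 to 4. Tomm40l (chr1:171217803-171222514, minus strand) was at 47.3, 58.9, 61.4 and 53.4 CPM in the controls and at 32.02, 30.2, 28.2 and 28.7 CPM in the libraries labelled knockout. For each gene the groups were apart, with the lowest knockout value of Tomm40 above its highest control value and the reverse for Tomm40l. Tomm40 rose 1.44-fold in mean CPM, with a fitted log2 change of 0.52 (standard error, SE, 0.066, adjusted p = 8.4e-05 by edgeR). Tomm40l fell to 0.539 of the control mean, with a fitted log2 change of -0.89 (SE 0.089, adjusted p = 1.8e-05 by edgeR). Leaving out any 1 library kept Tomm40 between 0.48 and 0.56 and Tomm40l between -0.96 and -0.84, past the threshold each time. Under library totals alone the change of Tomm40l was -0.22 and no longer passed it (edgeR adjusted p = 0.056).

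A ratio of a pair of genes within a library does not depend on how libraries are scaled, and its change between groups does not depend on the exon lengths, though its level does. Per kb of exon, Tomm40l stood to Tomm40 as 0.721, 0.814, 0.907 and 0.829 in control replicates 1 to 4 and as 0.324, 0.293, 0.307 and 0.304 in knockout replicates 1 to 4. The fall in the log2 ratio was larger than the spread in either group, from -0.30 ± 0.14 to -1.70 ± 0.060 (SD, n = 4 each; p = 0.0286 by a two-sided exact permutation test, the lowest possible with 4 against 4, and 0.0286 adjusted over the 3 ratios compared). Tomm40l made up 44.9% ± 2.33 of the summed level of both genes in the controls and 23.5% ± 0.751 in the libraries labelled knockout. Their summed level itself overlapped, at 38.6 to 44.9 CPM per kb in the controls and 41.1 to 45.6 in the libraries labelled knockout, a log2 difference of 0.049 that was 0.72 under library totals alone. Both the sum and the share rest on the deposited exon lengths: with the longer exon lengths of GENCODE M21 (all transcripts merged) the difference was -0.092, again with overlapping groups, and the share of Tomm40l 55.7% and 32.1%. The ratio was chosen with earlier results of these data known, and the sum and this alternative after values were seen. As the groups of both genes were already apart in opposite directions, the lowest p for the ratio was fixed beforehand and adds no support.

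The exons of these paralogs can be told apart by reads. Their coding sequences are 1083 and 924 bases long without the stop codon, 70.8% of aligned bases are identical and the longest identical run is 17 bases (GENCODE M21, GRCm38). No window of 75 bases, the read length, of Tomm40l occurs in the transcripts of another gene on the same strand. On the opposite strand 52.0% of its windows occur in transcripts of Nr1i3, whose span overlaps its 3′ end. Nr1i3 had 6 to 13 counts per library against 585 to 899 for Tomm40l. The library kit keeps strand, but whether the counting used it is not given in the sources used here; if it did not, reads of Tomm40l and Nr1i3 in the overlap cannot be told apart.

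**Figure D2:**
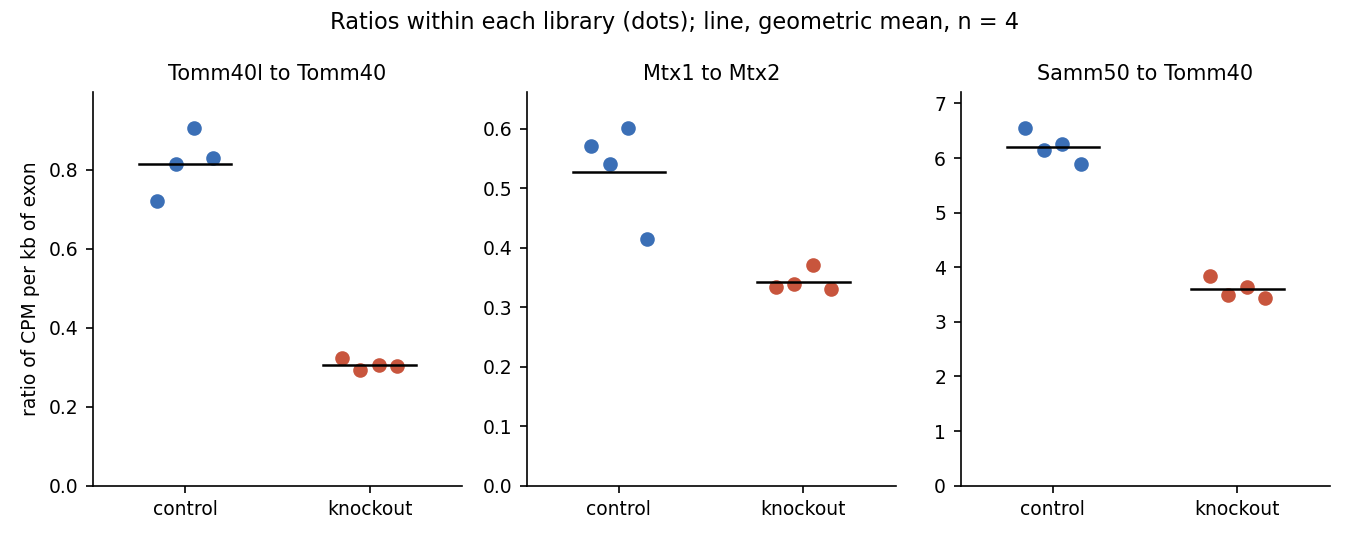
Ratios of CPM per kb of exon between pairs of genes within each library (linear axes from 0), controls in blue and libraries labelled knockout in red, with the geometric mean of each group as a line. The ratio of Tomm40l to Tomm40 falls from 0.721 to 0.907 in the controls to 0.293 to 0.324, and the other ratios also lie lower in all libraries labelled knockout.

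Both receptor genes of the complex were higher in the libraries labelled knockout. Tomm20 (chr8:126930664-126945921, minus strand) was at 49.0, 49.1, 46.4 and 51.7 CPM in control replicates 1 to 4 and at 71.9, 70.3, 75.4 and 72.3 CPM in knockout replicates 1 to 4. Tomm22 (chr15:79670868-79672862, plus strand) was at 40.2, 39.1, 44.0 and 38.3 CPM in the controls and at 56.7, 53.3, 56.1 and 57.6 CPM in the libraries labelled knockout. In both genes each knockout value was above each control value, with 1.48-fold and 1.38-fold higher means. The log2 fold changes were 0.56 (SE 0.060, adjusted p = 2.8e-05 by edgeR) and 0.47 (SE 0.065, adjusted p = 1.6e-04 by edgeR). Neither lost its call with any library left out, at 0.51 to 0.59 and 0.44 to 0.51. Tomm20 shares 4.67% of its 75-base windows with 9 other genes, the largest number of them with a processed pseudogene, and the authors left out multimapping reads.

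The third receptor, Tomm70a (TOMM70), which takes precursors of carrier proteins from chaperones, is not among the 10 genes. It was at 82.4 ± 5.80 CPM in the controls and 89.8 ± 5.53 CPM in the libraries labelled knockout (SD, n = 4 each), with overlapping groups and a log2 value of 0.12 (SE 0.074, adjusted p = 0.17 by edgeR).

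The small subunits showed no difference past the threshold. Tomm5 (chr4:45105209-45108113, minus strand) was at 26.8, 26.2, 27.1 and 27.7 CPM in control replicates 1 to 4 and at 27.6, 25.2, 26.2 and 28.6 CPM in knockout replicates 1 to 4. Its log2 fold change was -0.0032, with a 95% interval from -0.15 to 0.14. Tomm7 (chr5:23838944-23844145, minus strand) was at 46.5, 42.9, 48.7 and 38.7 CPM in the controls and at 47.5, 38.2, 43.2 and 45.9 CPM in the libraries labelled knockout, and its interval ran from -0.22 to 0.19 around -0.015. In both genes the values of the groups were mixed (edgeR adjusted p = 0.97 and 0.90). Tomm6, the remaining small subunit, was close by with 0.13 (SE 0.082, adjusted p = 0.20 by edgeR). The intervals of Tomm5 and Tomm7 ended below the log2 fold changes of Tomm40, Tomm20 and Tomm22, but whether the genes differed in their change was not tested. Under library totals alone Tomm5 and Tomm7 turned to 0.66 each, past the threshold.

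Tomm34 (chr2:164053540-164071169, minus strand), the cytosolic co-chaperone, had the lowest mean CPM of the 10 in the controls. It was at 14.3, 15.5, 18.1 and 15.2 CPM in control replicates 1 to 4 and at 20.6, 19.8, 19.8 and 23.6 CPM in knockout replicates 1 to 4. The groups did not overlap, though control replicate 3 at 18.1 CPM came close to the lowest knockout value. Its log2 fold change was 0.41 (SE 0.098, adjusted p = 0.0047 by edgeR), and 5 of the 8 fits that left out a library gave an edgeR adjusted p above 0.01, up to 0.018, with changes from 0.33 to 0.48. The library left out was control replicate 1, 2 or 4, or knockout replicate 1 or 4.

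**Figure D3:**
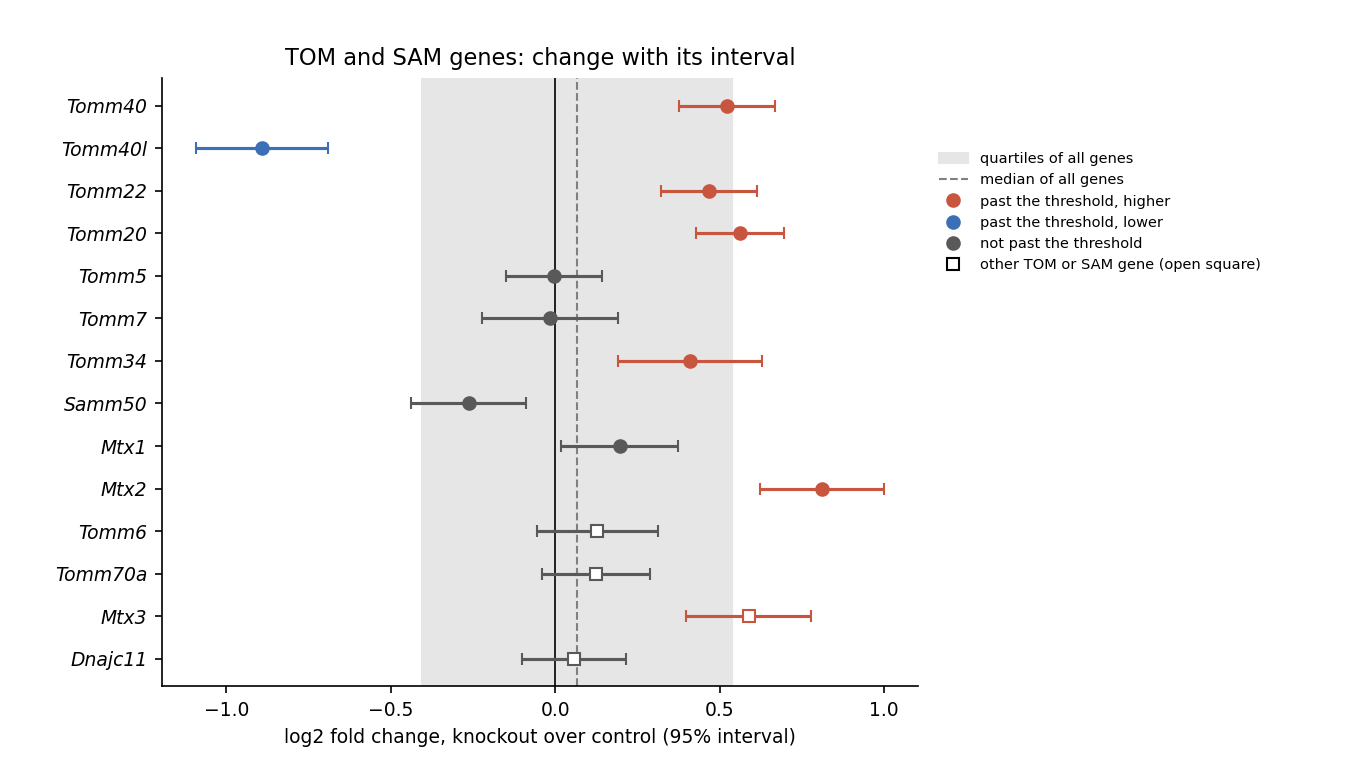
Log2 fold change of the 10 genes (filled) and of 4 further TOM and SAM genes (open squares), libraries labelled knockout over controls, with 95% intervals from edgeR's quasi-likelihood fit on TMM-scaled counts. The dashed line is the median of all genes, 0.065, and the grey band their quartiles, -0.40 to 0.54; under library totals alone all points move up by about the shift of that median to 0.73, and Tomm5, Tomm7 and Samm50 change sign.

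In SAM the barrel and its partners did not move together. Samm50 (chr15:84192233-84214303, plus strand) was at 246, 254, 243 and 217 CPM in control replicates 1 to 4 and at 217, 206, 192 and 186 CPM in knockout replicates 1 to 4. The groups touched without overlapping, as the lowest control value was 217.33 CPM and the highest knockout value 217.29 CPM. Its log2 fold change was -0.26 (standard error 0.078), with a 95% interval from -0.44 to -0.088, and did not pass the threshold (edgeR adjusted p = 0.015). It was past the threshold and lower with RLE size factors (edgeR adjusted p = 0.0068), with DESeq2 (adjusted p = 4.6e-04) and without control replicate 4 (edgeR adjusted p = 0.0072), which gives 2 genes lower in place of 1, and it was higher under library totals alone, at 0.41. The ratio of Samm50 to Tomm40, which does not depend on scaling, was lower in the libraries labelled knockout. Per kb of exon Samm50 stood at 6.55, 6.14, 6.26 and 5.89 times Tomm40 in the controls. In the libraries labelled knockout it stood at 3.84, 3.49, 3.64 and 3.43 times Tomm40. Tomm40 itself rose by 0.52 on the log2 scale, so the ratio does not show that Samm50 fell. The log2 ratio went from 2.63 ± 0.064 to 1.85 ± 0.073 (SD, n = 4 each; exact permutation test, two-sided, p = 0.0286, the same adjusted over the 3 ratios). The groups of Samm50 and Tomm40 were already apart in opposite directions, so this p was fixed beforehand too.

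Mtx2 (chr2:74825812-74876748, plus strand) had the largest rise of the 10 genes. It was at 24.1, 26.4, 22.6 and 28.7 CPM in control replicates 1 to 4 and at 46.3, 45.8, 41.2 and 45.6 CPM in knockout replicates 1 to 4. No control value came near the knockout values, and the mean was 1.76-fold higher. The log2 fold change was 0.81 (SE 0.084, adjusted p = 2.3e-05 by edgeR), from 0.76 to 0.87 with each library left out, and 83.5% of all genes had a log2 fold change no larger than this. Mtx2 shared no 75-base window with another gene's annotated transcripts.

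Mtx1 (chr3:89209081-89214335, minus strand) was at 16.6, 17.3, 16.5 and 14.4 CPM in the controls and at 18.7, 18.8, 18.5 and 18.2 CPM in the libraries labelled knockout. The groups did not overlap, but the shift was small, 0.20 on the log2 scale (SE 0.079, 95% interval 0.019 to 0.37), and did not pass the threshold (edgeR adjusted p = 0.055). On the opposite strand Mtx1 shares 17.4% of its 75-base windows with Gm43737 and Thbs3. The metaxin genes stood in another proportion to each other: Mtx1 was at 0.571, 0.540, 0.602 and 0.414 of Mtx2 per kb in the controls and at 0.334, 0.339, 0.371 and 0.330 in the libraries labelled knockout. Control replicate 4 was the lowest of the controls and still above each knockout value. The log2 ratio fell by 0.62 (exact permutation test, two-sided, p = 0.0286, the same adjusted over the 3 ratios), and by 0.55 to 0.73 with each library left out, where p was 0.0571 when any 1 of the 4 knockout libraries was left out. Mtx3, a further metaxin gene outside the 10, rose as well, from 13.8 ± 0.890 to 20.7 ± 1.41 CPM (SD, n = 4 each), or by 0.59 on the log2 scale (SE 0.085, adjusted p = 2.1e-04 by edgeR). Dnajc11, a J-domain protein found with SAM, was at 0.057 (SE 0.071, adjusted p = 0.51 by edgeR).

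Levels of different genes can be set side by side only per length, and their order depended on the lengths used. With the deposited exon lengths Samm50 was first in the controls at 144 ± 9.52 CPM per kb of exon, followed by Tomm7 (39.8 ± 3.93), Tomm22 (39.5 ± 2.46) and Tomm5 (39.2 ± 0.897), whose values overlapped. Below a gap came Tomm40 (23.1 ± 1.19), Mtx2 (20.2 ± 2.12) and Tomm40l (18.9 ± 2.15), where each overlapped the next, then Mtx1 (10.6 ± 0.831) and Tomm20 (9.84 ± 0.428), which overlapped, and Tomm34 (6.66 ± 0.691), all as SD with n = 4. In the libraries labelled knockout Tomm22 stood clear of Tomm7 and Tomm5 at 54.6 ± 1.84, while Mtx2 (35.5 ± 1.89) and Tomm40 (33.2 ± 1.65) had come up beside Tomm5 (39.1 ± 2.19), Mtx2 overlapping Tomm5. Tomm40l had gone down to 10.2 ± 0.586, the place before the last, where it overlapped Tomm34 (8.85 ± 0.760). Samm50 was still first at 119.7 ± 8.50, and Tomm20 (14.5 ± 0.430) now stood above Mtx1 (12.2 ± 0.173) without overlap.

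With the exon lengths of GENCODE M21, which are 6556 against 1673 deposited bases for Samm50 and 4513 against 1666 for Tomm40, Samm50 was no longer first. In the controls it was at 36.6 ± 2.43 CPM per kb and overlapped Tomm7 at 39.3 ± 3.88, and in the libraries labelled knockout it was at 30.5 ± 2.17 and overlapped Tomm5 at 30.97 ± 1.73 (SD, n = 4 each). Tomm40l stood above Tomm40 in the controls (10.8 ± 1.22 and 8.53 ± 0.440) and below it in the libraries labelled knockout (5.80 ± 0.333 and 12.3 ± 0.611), while Mtx1 took the last place in both groups. Changes of one gene between the groups do not depend on its length.

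**Figure D4:**
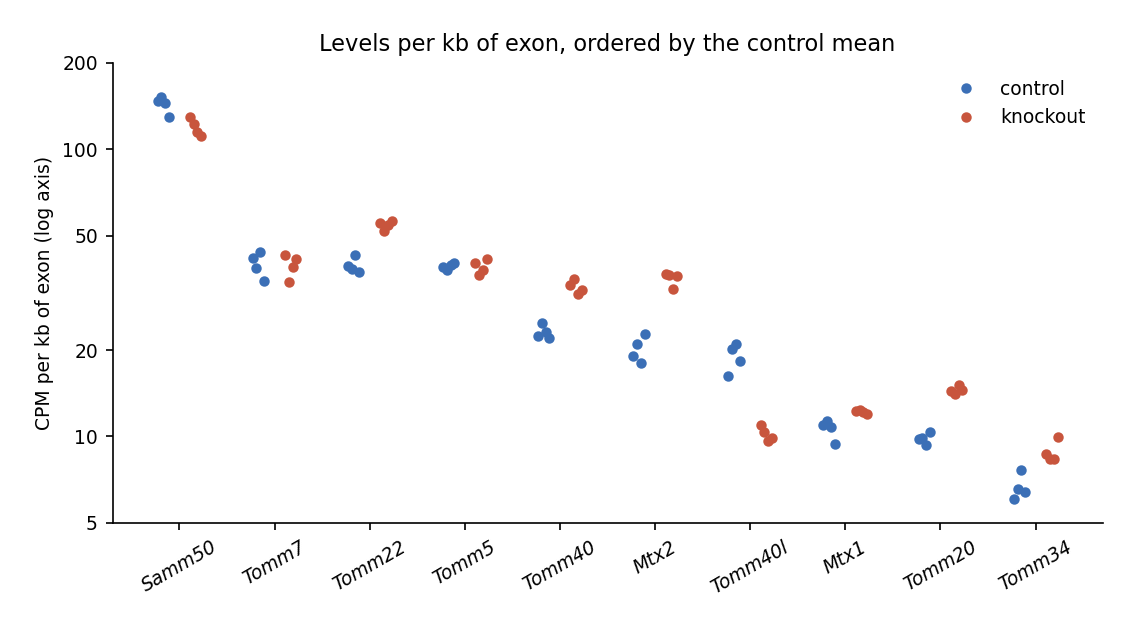
Level per kb of exon (CPM per kb with the deposited exon lengths, log axis) of the 10 genes, ordered by the control mean, in each control library (blue) and each library labelled knockout (red). Samm50 is highest in both groups with these lengths but not with those of GENCODE M21, Tomm22, Tomm40, Mtx2 and Tomm20 move up, and Tomm40l moves down from 18.9 to 10.2 on average.

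Around these genes the lists of the outer membrane and of import were mixed. Their counts stand beside 23.6% of all genes called higher and 21.1% called lower. Among the 4 further TOM and SAM genes in the table, 1 (Mtx3) was higher and 0 lower (median 0.13 on the log2 scale). Of the 5 clients and insertases of the outer membrane, 0 were higher and 2 lower, with a median of -0.16. Vdac1, a metabolite pore and a barrel that SAM folds into the outer membrane, fell from 1657 ± 165 to 839 ± 74.0 CPM (SD, n = 4 each; log2 fold change -0.98, SE 0.10, adjusted p = 2.7e-05 by edgeR). Vdac2 changed by -0.42 (SE 0.086, adjusted p = 0.0020 by edgeR) and Vdac3 by -0.16 (edgeR adjusted p = 0.19), while the insertase genes Mtch1 and Mtch2 were at 0.10 and 0.17 (edgeR adjusted p = 0.32 and 0.058). Under library totals alone Vdac2 was at 0.25 and Vdac3 at 0.51.

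All 7 genes of MICOS, the complex that holds the cristae and contacts SAM from inside, passed the threshold, 5 lower and 2 higher, with a median of -0.46. Over all genes 21.1% were called lower and 23.6% higher. The extremes were Apoo at -1.06 (SE 0.098, adjusted p = 1.1e-05 by edgeR) and Chchd6 at 1.03 (SE 0.16, adjusted p = 3.5e-04 by edgeR), and under library totals alone Immt (0.21), Chchd3 (0.036), Apool (0.32) and Minos1 (0.071) were positive. Of 6 genes that watch over or clear TOM, 1 was higher, Park2 (Parkin) at 0.51, and 1 lower, Pink1 at -0.70 (edgeR adjusted p = 0.0022 and 4.5e-04), with a median of 0.057. PINK1 is the kinase that builds up at TOM when import fails, and Parkin the ubiquitin ligase it calls in.

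Of 7 cytosolic chaperone genes whose proteins deliver precursors to TOM or work with TOMM34 and TOMM70, 0 were higher and 3 lower, with a median of -0.22 and a range from -0.9995 to 0.22. Of the 3 lower, Dnaja1 had the largest change, -0.9995 (edgeR adjusted p = 9.5e-05), and Stip1 the smallest, -0.47 (edgeR adjusted p = 0.0086). Control replicate 4 stood below the other controls in these genes, with Stip1 at 129 CPM against 185 to 202 CPM and Dnaja1 at 49.3 against 67.7 to 75.9 CPM. For Stip1 it lay within the 123 to 133 CPM of the libraries labelled knockout, so its groups overlapped. Without that library Stip1 and Dnaja1 were still lower and past the threshold. Among 10 genes of the TIM23 channel and its motor 0 were higher and 3 lower, with a median of -0.18 and a range from -0.63 to 0.18. The 3 lower ran from Dnajc19 at -0.63 (edgeR adjusted p = 5.3e-04) to Timm17b at -0.29 (edgeR adjusted p = 0.0075). The 8 genes of TIM22 and the small TIM chaperones held 2 higher and 2 lower, with a median of 0.27, from Timm10 at 1.195 (edgeR adjusted p = 1.0e-06) to Timm22 at -0.67 (edgeR adjusted p = 1.7e-04). Under library totals alone Stip1 (0.20), Dnajc19 (0.040) and Timm17b (0.38) were positive. Over all genes 23.6% were called higher and 21.1% lower. Whether any list differed from these shares or from the TOM and SAM genes was not tested.

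**Figure D5:**
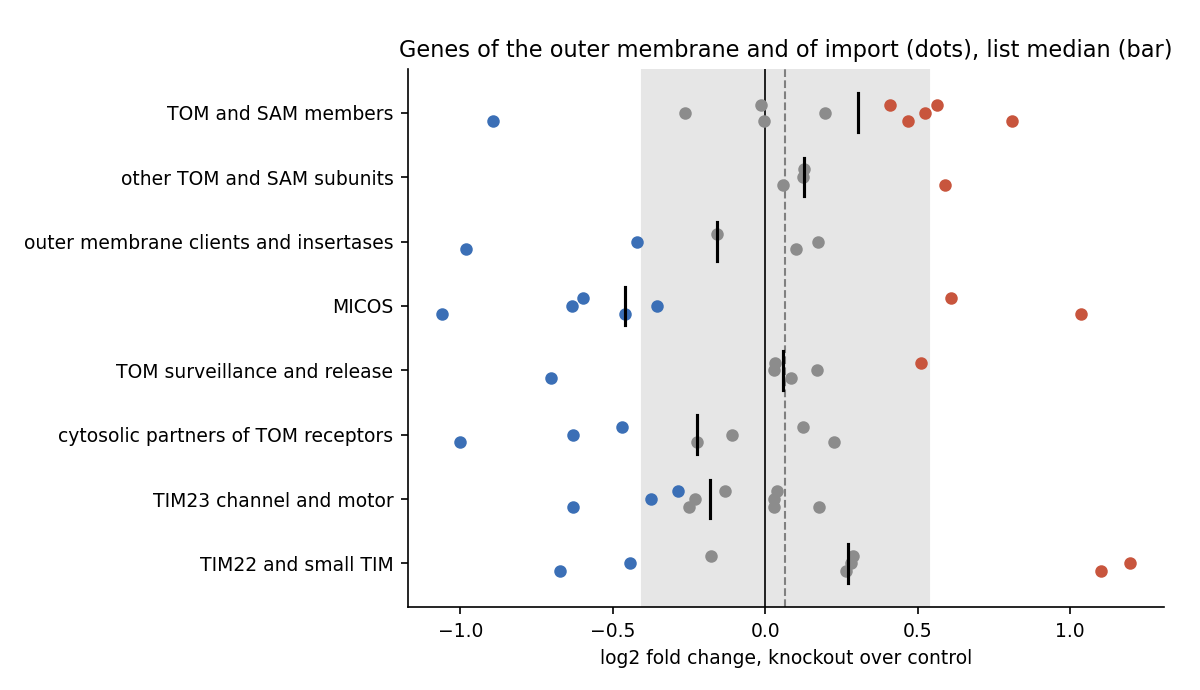
Log2 fold change of each gene (dots), libraries labelled knockout over controls, by list, with the list median as a bar. Red dots passed the threshold higher, blue lower and grey dots did not pass it; the dashed line and grey band give the median and quartiles of all genes. The median is 0.30 for the TOM and SAM members and -0.46 for MICOS on TMM-scaled counts, and library totals alone move the median of all genes from 0.065 to 0.73 and turn several genes, such as Tomm5, Tomm7, Samm50 and Vdac2, to positive values.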

How the data were processed

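Polyadenylated RNA of QF from 8 mice was made into libraries with a directional kit and sequenced as read pairs. The deposited values used are raw counts per gene: per the labels and the methods of the study the authors demultiplexed with bcl2fastq 2.20.0.422, trimmed with cutadapt, mapped to GRCm38 with STAR 2.5.4b and counted pairs on exons with Rsubread 2.6.4. They left out duplicate, chimeric and multimapping reads, mapping scores under 10 and genes below 50 reads over the 8 libraries. Removing duplicates can lower the counts of very abundant genes. The annotation release and the strand setting are not given in the sources used here. The exon length of each gene, another deposited column (bases), was used for levels per kb. The authors' FPKM values and the columns of their own comparison (fold changes and p-values) were not used.

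Groups came from the labels (4 and 4). Counts of all 14012 genes were scaled by TMM and tested with edgeR 4.0.16 (R 4.3.3, quasi-likelihood, no covariates) with Benjamini-Hochberg adjustment and a threshold of 0.01; DESeq2 1.42.0 was an alternative. Scripts were tested on simulated data with 200 of 13990 genes changed. There 7% of genes changed by 0.5 on the log2 scale passed the threshold, and 75% of those changed by 1. Far more genes were called in the real data, so these shares do not carry over directly. Ratios were tested by an exact permutation test over the 70 assignments of 4 against 4. In these libraries 3 counts were worth 0.119 to 0.242 CPM. The members were given by name, and the members, gene lists, ratios and motifs were chosen with earlier results of these data known. Genes named are all members, the further TOM and SAM genes, the outer membrane clients and insertases, and from each other list those of its called genes that changed most and least in signed log2 terms; genes whose sign turned under library totals are named too. Alternatives were other scalings, a filter on low counts, DESeq2, a looser threshold, GENCODE exon lengths, a replicate block and leaving out each library. Sequences are from RefSeq (GRCm38.p6), and overlaps and shared windows of 75 bases from GENCODE M21.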

Additional observations from a re-analysis of the deposited data

Results flagged for a closer look

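Among 26 groups of 4 libraries examined for a value far from the others, 1 stood out, where chance flags about 1 in 20. Mtx2 was at 41.2 CPM in knockout replicate 3 and at 45.6 to 46.3 CPM in the other libraries labelled knockout, a gap of 0.857 of the range of the group against Dixon's critical value of 0.829. That library was still above each control, of which the highest was at 28.7 CPM.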

How the results depend on the processing

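The 5 higher genes and Tomm40l kept direction and call with RLE size factors, upper-quartile scaling, a filter on low counts, DESeq2, scaling without the most abundant and mitochondrial genes, and an adjusted p under 0.05. Samm50 was also lower, giving 2 lower genes in place of 1, with RLE factors, DESeq2, scaling without abundant genes, the looser threshold and without control replicate 4. With each library left out the members held 4 to 5 higher and 1 to 2 lower, and all genes 5196 to 5867 calls in place of 6265. Library totals alone gave 8498 genes higher and 873 lower, 9 members higher and 0 lower, and 35 higher and 2 lower among the other listed genes. By construction totals alone keep no composition factor, and signs turned to positive for Tomm5 (0.66), Tomm7 (0.66), Samm50 (0.41), Vdac2 (0.25), Vdac3 (0.51), Immt (0.21), Chchd3 (0.036), Apool (0.32), Minos1 (0.071), Hspa8 (0.051), Hsp90aa1 (0.57), Dnaja2 (0.44), Stip1 (0.20), Timm23 (0.30), Timm17b (0.38), Timm21 (0.54), Romo1 (0.42), Dnajc19 (0.040), Timm44 (0.44), Timm8b (0.22) and Timm13 (0.49). With each library left out the log2 ratio differences ran from -1.47 to -1.36 for Tomm40l to Tomm40, from -0.73 to -0.55 for Mtx1 to Mtx2 and from -0.82 to -0.76 for Samm50 to Tomm40.

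The labels do not say that replicate numbers pair the samples. Deviations of same-numbered libraries correlated at 0.12, 0.0031, 0.42 and 0.14, and 3 of 4, all but replicate 2, correlated best with their own number, a hint from the data only, so the numbers were not taken as pairs. With the number as a block 6123 genes were called and Tomm34 was not (edgeR adjusted p = 0.011), leaving 4 members higher. For the ratios, pairing gave the same differences (-1.41, -0.62 and -0.79) with an exact sign-flip p of 0.125, the smallest 4 pairs allow. With 4 mice per group, changes inside the intervals of Tomm5 and Tomm7 could not be told from none, and larger ones, such as Samm50 at -0.26, also missed the threshold. The order of levels per kb changed with GENCODE M21 exon lengths.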
